A study of Rorippa islandica and Rorippa pyrenaica with 24 samples.

Results

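To look at duplicated genes whose copies respond to submergence in opposite directions, 9 pairs of *R. islandica* genes of the same orthogroup were examined that were chosen by opposed responses: in young leaves of *R. islandica*, one gene of the pair was at a higher level and the other at a lower level in submerged plants than in plants in air, after 24 h and again after 48 h. A pair was an orthogroup, meaning a set of genes descended from one ancestral gene, that held exactly 2 *R. islandica* genes. The transcriptome held 30646 genes in 24238 orthogroups, and 2200 of these orthogroups held 2 genes. Levels were counts per 1000000 counts of the library (CPM), and L was the log2 ratio of the mean of the 3 submerged libraries to the mean of the 3 control libraries after 0.5 CPM was added to both. The pairs were selected on L of at least 0.75 for one gene and at most -0.75 for the other at both times, and on a mean of at least 2 CPM over the 12 *R. islandica* libraries for each gene. Both genes reached that level in 660 pairs, and 9 of these, with 18 genes, met the rule (1.36%). The gene with the higher level under water is called the rising gene of its pair and its partner the falling gene. By the same limits, both genes of 57 pairs were higher and both genes of 40 pairs were lower in submerged *R. islandica*.

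The study compared 2 diploid species of the tribe Cardamineae (Brassicaceae), the submergence-tolerant *Rorippa islandica* and the more sensitive *Rorippa stylosa*. Soil-grown plants were put under tap water in transparent boxes and kept in a day-night rhythm, control plants stood in empty boxes in air, and polyadenylated RNA of young leaves was sequenced after 24 and 48 h, with 3 libraries for each species, treatment and time and 24 in all. *R. islandica* was raised from seed, whereas *R. stylosa* was propagated vegetatively and separately for each replicate. The reads of both species were assigned to the *R. islandica* transcriptome, so that an *R. stylosa* value stands for the reads that matched an *R. islandica* copy best, and the effect of sequence differences on these values was not tested.

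Orthogroups are inferred from protein sequences, and their members are often, but not always, of similar function. When copies of a gene are kept in a genome, they can share the ancestral expression pattern between them, or one copy can take on a response of its own. Submerged leaves exchange gas slowly, so that oxygen and carbon dioxide supply changes and ethylene accumulates, and a large part of the transcriptome is readjusted. The files name the genes of the 9 pairs by identifier only, and no function is given to them here.

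Between 24127592 and 66692318 reads were counted per library, with medians of 36557573 in *R. islandica* and 32959117 in *R. stylosa*. Libraries of the same group differed by more than sampling noise, with a chi-square per degree of freedom of 11.4 or more, so that none was a repeat of another. *R. stylosa* 48 h control replicate 1 stood apart from the other libraries of its group, and 1 gene took 5.12% of its counts. Scaling by TMM (trimmed mean of M values, which corrects for differences in library composition) instead of by the totals shifted the median change of all genes. The shift was -0.11 at 24 h and -0.16 at 48 h for *R. islandica*, and -0.19 and -0.25 for *R. stylosa*. For genes at high levels, changes on the TMM scale lie below L by about that much. At low levels the added 0.5 CPM also draws L towards 0. For Roisl.0027s0112 in *R. stylosa* at 24 h, L was -1.07 but the log2 fold change on the TMM scale was -3.27.

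The *R. islandica* values chose the pairs and are given as a description, with no test. The 3 submerged libraries lay above the 3 controls for all 9 rising genes and below them for all 9 falling genes, at both times. The rule favours such separation. The share of all genes with it was not computed, so the count is not a result about the members. L of the rising genes ran from 0.75 for Roisl.0018s0356 to 4.66 for Roisl.0074s0899 at 24 h and from 0.98 to 4.69 at 48 h. The falling genes ran from -2.59 for Roisl.0075s0127 to -0.88 for Roisl.0046s1507 at 24 h and from -3.12 to -1.11 at 48 h. The pair nearest inside the limit was OG0004709, whose rising gene Roisl.0018s0356 had L of 0.754 at 24 h. Just outside it was OG0000224, with L of 1.0 and 1.52 for Roisl.0024s0248 but -1.15 and -0.73 for Roisl.0210s0610. By level, the falling gene of OG0000658, Roisl.0046s1507, was nearest inside with a mean of 2.01 CPM. Nearest outside was Roisl.0091s0655 of OG0001614, with 1.62 CPM, one of 11 pairs that were opposed in L but below the minimum level.

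**Figure D1:**
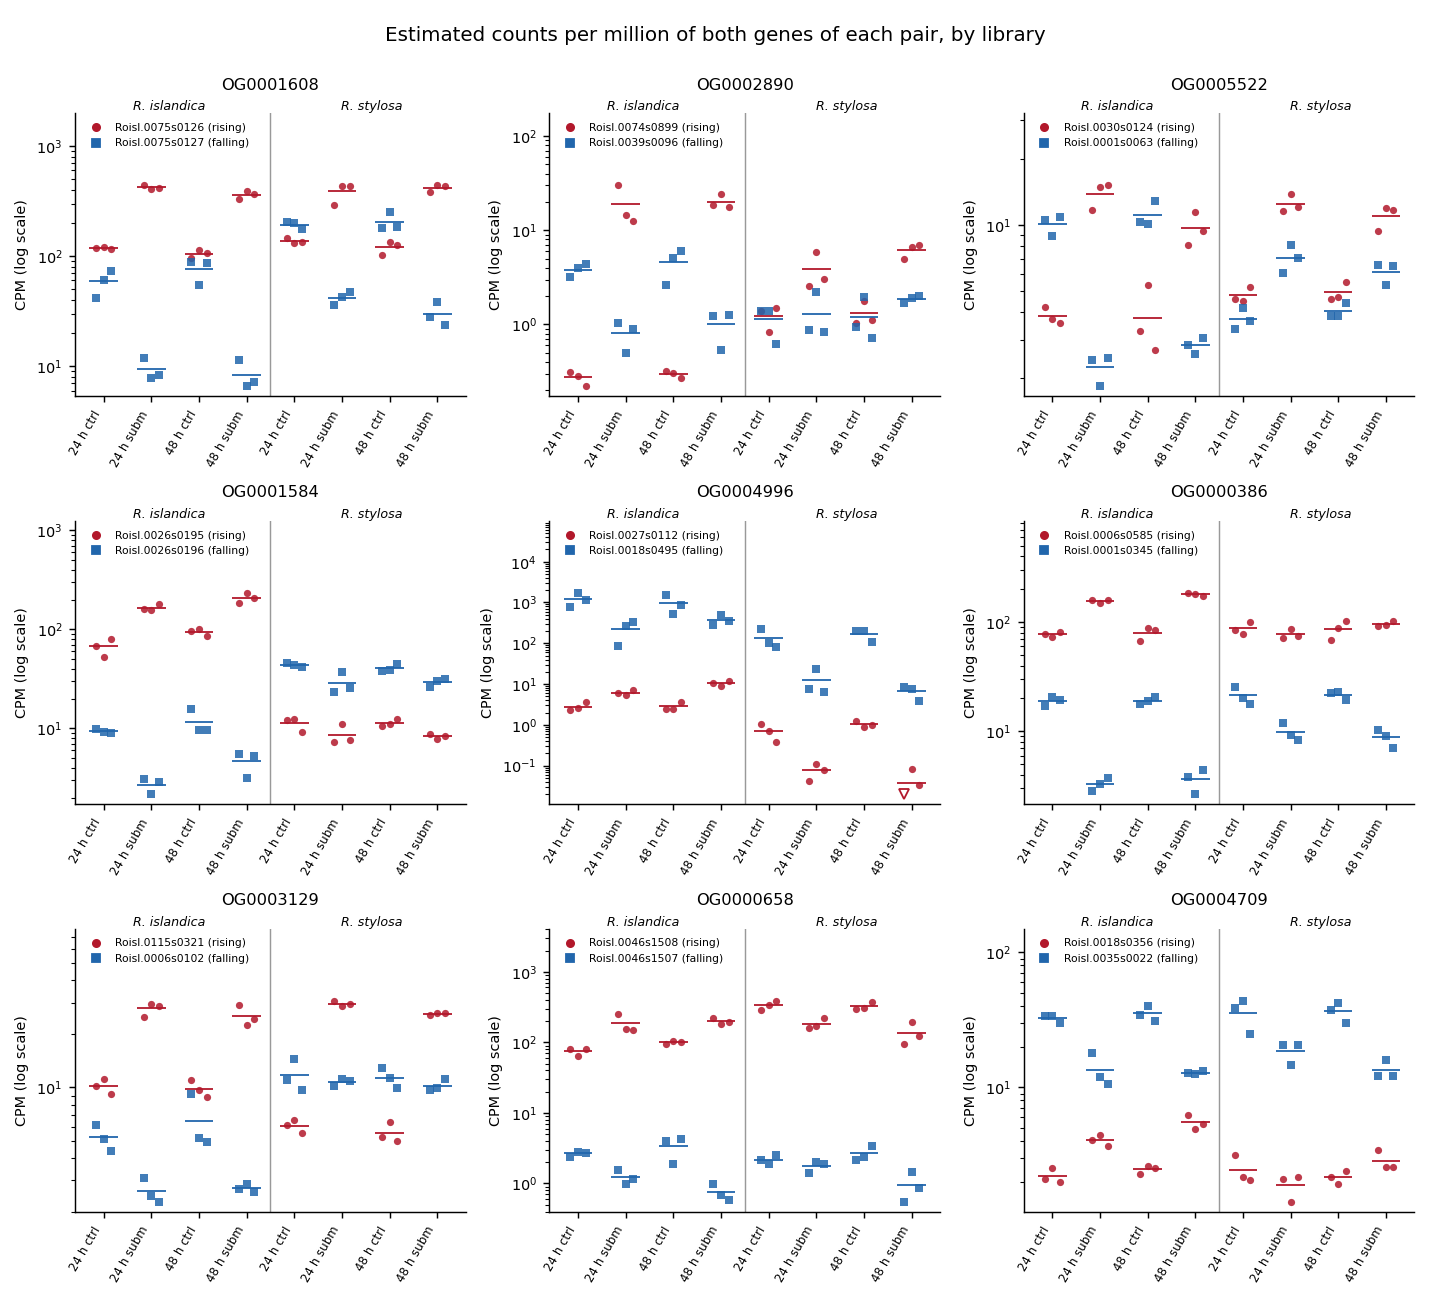
CPM (log axis) of both genes of the 9 pairs in each of the 24 libraries, with *R. islandica* to the left of the grey line and *R. stylosa* to the right; red circles are the rising gene, blue squares the falling gene, short lines the means of 3 libraries, and the open triangle in OG0004996 a library with 0 counts. In *R. islandica* the red values are higher and the blue values lower under water in every pair, whereas in *R. stylosa* both colours move apart most clearly in OG0001608.

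Features that the rule did not use were compared with those of the other pairs. The genes of 3 of the 9 pairs (33.3%) had consecutive identifiers, the usual numbering of neighbouring genes, and this held for 132 of the 660 pairs at the same level (20.0%) and for 507 of all 2200 (23.1%). These 3 were OG0001608, OG0001584 and OG0000658. The coding lengths of the partners were equal in 2 pairs (22.2%, against 21.7% of the 660), and the shorter gene had 0.87 to 1 times the length of the longer one, with a median ratio of 0.99 in both sets. Every one of the 18 genes had 1 annotated transcript. kallisto divides a read among the transcripts it fits, which leaves counts that are not whole numbers when copies are near-identical. A value was taken as whole when it had no decimal part as deposited, with a tolerance of 0. All values of both genes were not whole in OG0005522 and OG0001584, in both species, and none were in OG0000386, OG0000658 and OG0004709. For OG0001608 they were not whole in 58.3% of the *R. stylosa* values of each gene. In the first pairs a read of one copy may have been assigned to the other, and its part in their values was not tested, so the sum of both genes is given for them too. Which transcripts shared the reads was not examined, and the sum still depends on any reads shared with genes outside the pair.

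Dominance within the pairs was compared per kb of coding length, since levels of different genes are comparable only in that way. In *R. islandica* in air, the rising gene had the higher level in all libraries of 5 pairs and the falling gene in all libraries of 4, at both times. Under water the rising gene was the higher one in 7 pairs. The order was turned over in OG0002890 and OG0005522, whereas in OG0004709 and OG0004996 the falling gene kept the higher level in every library. In *R. stylosa*, too, the order turned over in 2 pairs at both times, but these were OG0001608 and OG0003129.

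All 18 genes passed the filter on low counts in *R. stylosa* and were tested there, together with 19886 genes in all, with edgeR's quasi-likelihood test and Benjamini-Hochberg adjusted p-values over all of these genes. A gene was called at an adjusted p under 0.05, with no minimum fold change. After a log2 fold change or a change of a ratio, ± gives the SE, and after a level or a share the SD, with 3 libraries per group. Of the 9 rising genes, 4 rose in *R. stylosa* at 24 h, where 28.9% of all genes rose, and 4 at 48 h, where 34.0% did. These were the same genes at both times: Roisl.0075s0126, Roisl.0115s0321, Roisl.0074s0899 and Roisl.0030s0124. Another 5 of the 9 fell at 24 h, where 27.7% of all genes fell, and 3 at 48 h, against 32.7%. The 5 at 24 h became 3 without 24 h submergence replicate 1 or 48 h submergence replicate 3, and 4 or 5 without any other 1 library. Of the 9 falling genes, 5 fell at 24 h and 7 at 48 h, while 1 rose at 24 h and 0 rose at 48 h by the adjusted p from edgeR or DESeq2, or by an unadjusted p under 0.05 from edgeR. The median log2 fold change was -0.40 and 0.11 for the rising genes and -0.82 and -1.58 for the falling genes at 24 and 48 h, beside 0.013 and 0.0058 over all genes. In the plot of the *R. stylosa* responses, the falling genes moved in their *R. islandica* direction in more pairs than the rising genes did. This difference was not tested. The plot is on the TMM scale, whose shift in *R. stylosa* was -0.19 at 24 h and -0.25 at 48 h. The *R. islandica* directions were set on L. For the rising gene Roisl.0006s0585 at 48 h, L was 0.15 but the log2 fold change on the TMM scale was -0.13.

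**Figure D2:**
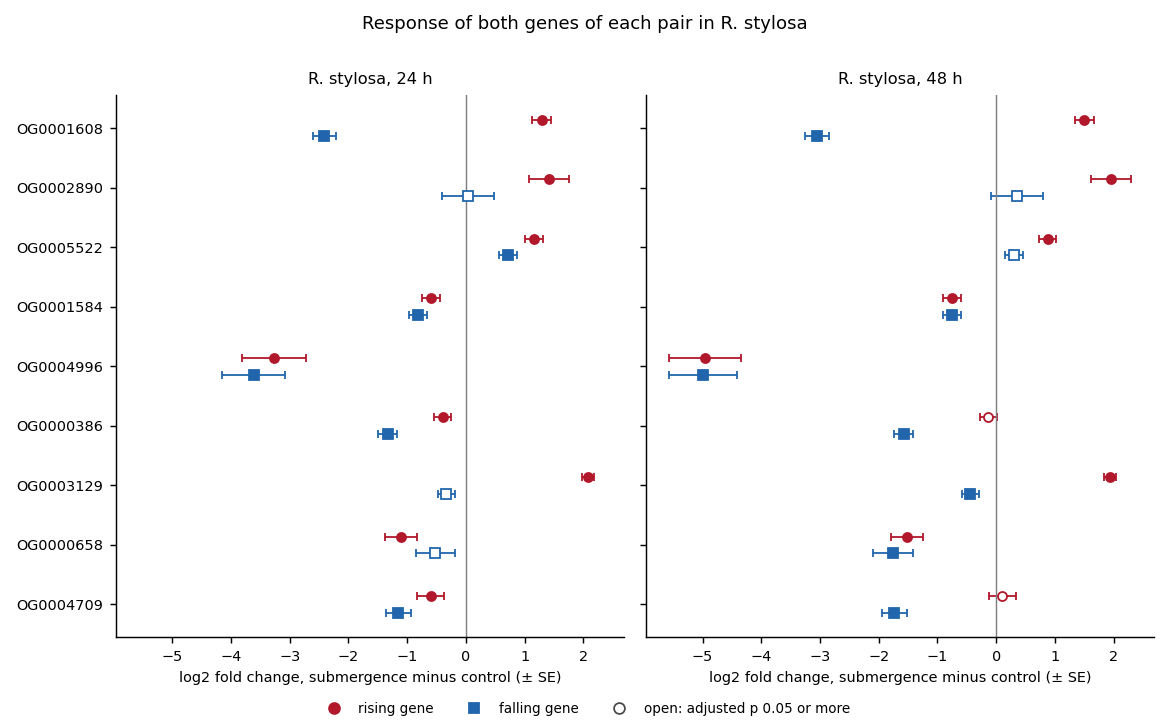
log2 fold change (submergence minus control, edgeR, bars are SE, 3 libraries per group) of the rising gene (red circle) and the falling gene (blue square) of the 9 pairs in *R. stylosa* at 24 h (left) and 48 h (right); open symbols had an adjusted p of 0.05 or more. OG0001608 has both genes far from 0 on opposite sides at both times, and in OG0004996, OG0001584 and OG0000658 both symbols lie left of 0.

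As pairs, 1 of 9 had both genes called in opposite directions in *R. stylosa* at 24 h, OG0001608, and 2 at 48 h, OG0001608 and OG0003129. Over all 974 pairs with both genes tested, the shares were 6.16% and 7.08%. Both genes fell in 4 of the 9 at 24 h and in 3 at 48 h, and both rose in 1 at 24 h and, by adjusted or unadjusted p under 0.05 from edgeR, in 0 at 48 h, beside 17.8% and 21.7% of all pairs for the first and 14.4% and 19.4% for the second. In the others only 1 gene was called. The same rule, on L and on the minimum level, selected 7 pairs when applied to *R. stylosa*. OG0001608 was the 1 shared pair, 11.1% of the *R. islandica* list and 14.3% of the *R. stylosa* list. How many pairs reached the minimum level in *R. stylosa* is not given, so the 7 has no denominator. The overlap expected of lists this short was not computed, so the 1 shared pair is a description only. The count of opposed pairs at 24 h became 2 without control replicate 1 or 3, and that at 48 h became 1 without control replicate 1 or submergence replicate 1, through OG0003129 each time. The 4 pairs in which both genes fell at 24 h became 2 without 24 h submergence replicate 1 or 48 h submergence replicate 3, through OG0000386 and OG0004709.

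The ratio of the genes within a pair was tested as well, because it can move without opposite calls. It was taken in each library as the log2 of rising over falling gene after adding 0.5 CPM to both, and limma compared submergence with control over the same 974 pairs. In 6 of the 9 pairs the ratio rose in *R. stylosa* at 24 h, as in *R. islandica*, and in 1, OG0000658, it fell, where it moved in either direction in 41.9% of all pairs. At 48 h it rose in 7 of the 9 and fell in 0 by the adjusted p or by an unadjusted p under 0.05, where it moved in either direction in 47.0% of all pairs. Both counts of rises include OG0004996, whose call depended on the 0.5 CPM added. With 0.02 CPM its change was 0.68 at 24 h and 0.26 at 48 h, and neither was called. The other pairs have no rising gene, so the values over all pairs carry no direction. The median change of the ratio over the 9 pairs was 0.91 and 1.43 at 24 and 48 h. These medians include OG0004996 with 0.5 CPM added and were not computed with 0.02 CPM. The median absolute change over all tested pairs was 0.34 and 0.40. In *R. islandica*, where it follows from the rule, the change ran from 2.03 to 6.30 at 24 h and from 2.37 to 6.40 at 48 h. The change in *R. stylosa* against that in *R. islandica* had Pearson's r of 0.33 and 0.34 over the 9 pairs. Over the 660 pairs, which include these 9, r was 0.48 at both times, a description of pairs that share the same libraries. The rule set the sign and limited the range of the *R. islandica* changes of the 9. The other pairs have no set direction, so the values of r are not comparable. The r over the 9 pairs also uses OG0004996 with 0.5 CPM added. No change of the ratio response from 24 to 48 h passed in any of the 9 (limma, 0 at an adjusted p under 0.05), with 3 at an unadjusted p under 0.05.

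**Figure D3:**
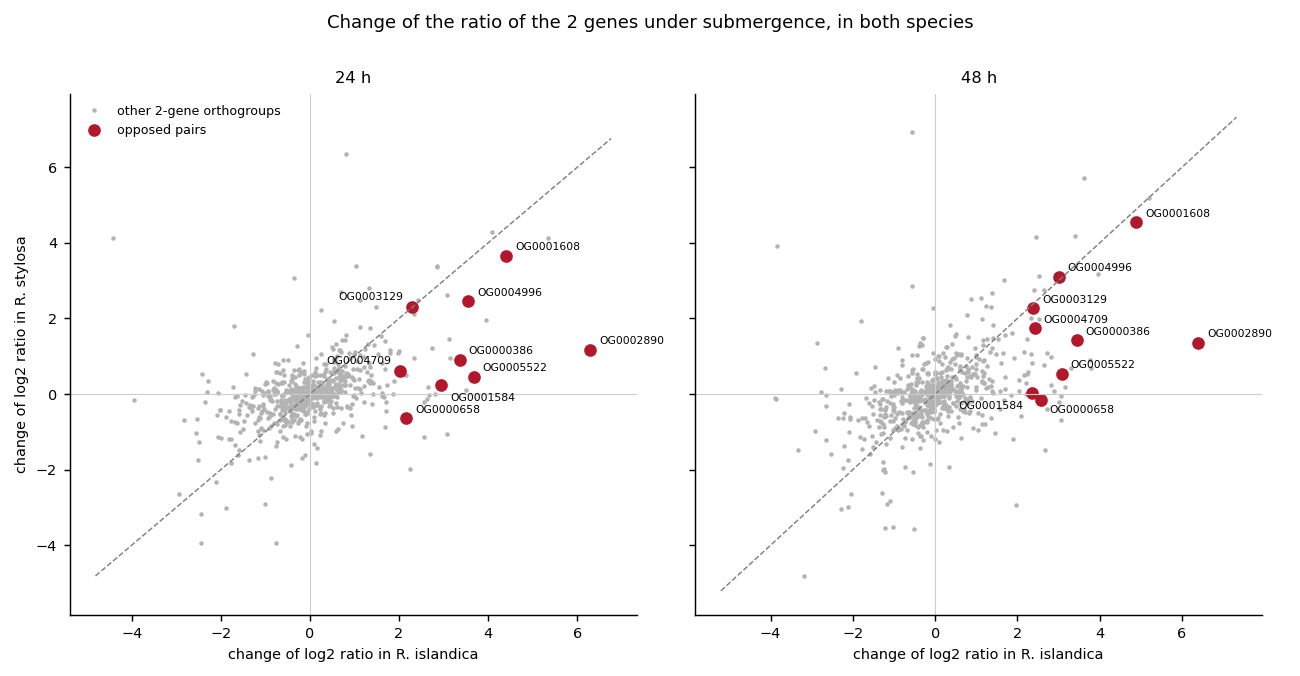
Change of the log2 ratio of the genes of a pair under submergence (submergence minus control, means of 3 libraries) in *R. islandica* (x axis) and *R. stylosa* (y axis) at 24 and 48 h for the 660 pairs at 2 CPM or more in *R. islandica*, with the 9 opposed pairs in red as rising over falling gene, the others in the order of their identifiers, and equal change on the dashed line. OG0001608 and OG0003129 lie near the line at both times, while OG0002890 changed by 6.30 and 6.40 in *R. islandica* and by 1.17 and 1.36 in *R. stylosa*.

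OG0001608 was the pair with opposite responses in both species at both times. Its genes, Roisl.0075s0126 (rising) and Roisl.0075s0127 (falling), have consecutive identifiers and the same coding length of 1464 bases. In *R. islandica* at 24 h, Roisl.0075s0126 was at 118, 121 and 116 CPM in the controls and at 439.8, 406 and 416 CPM in the submerged libraries, 3.56-fold higher in the mean. Roisl.0075s0127 was at 41.8, 60.9 and 73.8 CPM in air and at 11.9, 7.76 and 8.38 CPM under water, 6.29-fold lower. Neither gene's groups overlapped. After 48 h the values were 95.1, 114 and 107 CPM against 328, 388 and 364 CPM for Roisl.0075s0126. For Roisl.0075s0127 they were 87.5, 54.8 and 86.4 CPM against 11.3, 6.55 and 7.18 CPM, the largest fall of a falling gene in L among the 9. The rising gene therefore supplied 67.2% ± 6.32 (SD, n = 3) of the counts of the pair in air and 97.8% ± 0.412 under water at 24 h.

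In *R. stylosa*, Roisl.0075s0126 started from a similar level, 144, 132 and 134 CPM in air at 24 h, and stood at 294, 434 and 434 CPM under water (log2 fold change 1.29 ± 0.16, adjusted p = 3.66e-05). For Roisl.0075s0126, the 48 h values were 103, 134 and 127 CPM in air and 384, 437 and 430.4 CPM under water (1.5 ± 0.16, adjusted p = 7.55e-06). All submerged libraries were above all controls at both times. Its partner Roisl.0075s0127 was at 203, 198 and 175 CPM in air and at 35.7, 42.5 and 47.02 CPM under water at 24 h (log2 fold change -2.41 ± 0.20, adjusted p = 1.45e-06). At 48 h these values were 179, 249 and 184 CPM and 27.8, 38.02 and 23.7 CPM (-3.05 ± 0.20, adjusted p = 1.98e-07). Again no library of one treatment lay within the other. The falling gene was the higher one in air, at 139 ± 26.7 CPM per kb against 82.95 ± 11.3 CPM per kb for the rising gene at 48 h, and the lower one under water, at 20.4 ± 5.03 against 285 ± 20.02 CPM per kb. The share of the rising gene went from 41.7% ± 1.67 to 90.2% ± 0.964 at 24 h and from 37.5% ± 3.08 to 93.3% ± 1.39 at 48 h, and the log2 ratio changed by 3.67 ± 0.16, adjusted p = 2.26e-07, and by 4.55 ± 0.16, adjusted p = 2.98e-08 (limma). The sum of both genes changed less than either gene, from 325 ± 52.2 to 447 ± 32.7 CPM at 48 h. Counts that were not whole made up 58.3% of the values of each gene in *R. stylosa*, against 8.33% and 16.7% in *R. islandica*.

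OG0003129 had the largest rise of a rising gene in *R. stylosa* at 24 h, with a small change of its partner. Roisl.0115s0321 (rising, 546 bases) was at 10.2, 11.2 and 9.13 CPM in air and at 24.97, 29.6 and 28.8 CPM under water in *R. islandica* at 24 h, and at 11.04, 9.62 and 8.84 CPM in air and 29.2, 22.5 and 24.2 CPM under water at 48 h. Roisl.0006s0102 (falling, 543 bases) was at 6.15, 5.14 and 4.401 CPM in air and at 3.1, 2.45 and 2.27 CPM under water at 24 h. At 48 h Roisl.0006s0102 was at 9.21, 5.203 and 4.902 CPM in air and 2.69, 2.86 and 2.59 CPM under water. The control at 9.21 CPM was the highest of the falling gene's 12 libraries. In *R. stylosa* the rising gene was at 6.17, 6.56 and 5.51 CPM in air and at 30.8, 28.9 and 29.3 CPM under water at 24 h (log2 fold change 2.07 ± 0.10, adjusted p = 3.82e-08). Roisl.0115s0321 at 48 h was at 5.26, 6.41 and 4.96 CPM in air and 25.6, 26.2 and 26.1 CPM under water (1.94 ± 0.10, adjusted p = 3.75e-08). The groups lay far apart, and the mean level was 4.88 and 4.69 times that in air. The falling gene overlapped between air and water at both times, with 11.1, 14.4 and 9.68 CPM against 10.2, 11.2 and 10.9 CPM at 24 h (log2 fold change -0.33 ± 0.15, adjusted p = 0.0754). For Roisl.0006s0102, the 48 h values were 12.8, 11.3 and 9.88 CPM against 9.63, 9.899 and 11.2 CPM (-0.44 ± 0.15, adjusted p = 0.0203). The latter call was lost without 48 h control replicate 1 (adjusted p = 0.082, edgeR) or submergence replicate 1 (0.0763). At 24 h the gene was called without control replicate 1 or 3. By the totals, L of Roisl.0006s0102 was -0.12 at 24 h and -0.14 at 48 h, smaller falls than on the TMM scale. In air it had 21.6 ± 4.47 CPM per kb and the rising gene 11.1 ± 0.972, and under water 19.8 ± 0.933 against 54.3 ± 1.78. The log2 ratio changed by 2.30 ± 0.13, adjusted p = 7.64e-07 at 24 h and by 2.28 ± 0.13, adjusted p = 5.63e-07 at 48 h (limma), beside 2.29 and 2.38 in *R. islandica*.

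OG0002890 held the gene with the largest difference in *R. islandica*. Roisl.0074s0899 (rising, 2586 bases) was nearly silent in air, at 0.316, 0.285 and 0.22 CPM at 24 h, from 8 to 19 counts per library, and was at 30.1, 14.5 and 12.7 CPM under water. At 48 h these values were 0.323, 0.306 and 0.272 CPM and 18.4, 24.4 and 17.6 CPM. The means differed 69.9-fold and 67.02-fold, and submergence replicate 1 was the highest library at 24 h. Its partner Roisl.0039s0096 (falling, 2655 bases) was at 3.15, 3.97 and 4.34 CPM in air and 1.04, 0.495 and 0.901 CPM under water at 24 h. At 48 h Roisl.0039s0096 was at 2.65, 5.03 and 5.99 CPM in air and 1.23, 0.531 and 1.25 CPM under water. The share of the rising gene in the pair went from 6.87% ± 2.14 to 95.6% ± 1.91 at 24 h and from 6.98% ± 3.42 to 94.98% ± 2.51 at 48 h, and the sum of both genes from 4.09 ± 0.561 to 19.9 ± 9.76 CPM at 24 h.

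In *R. stylosa* only the rising gene of OG0002890 was called, with means that differed 3.12-fold and 4.73-fold at 24 and 48 h. Roisl.0074s0899 was at 1.38, 0.823 and 1.501 CPM in air and 2.58, 5.899 and 3.06 CPM under water at 24 h (log2 fold change 1.42 ± 0.34, adjusted p = 0.00403). Roisl.0074s0899 at 48 h was at 1.03, 1.78 and 1.13 CPM in air and 4.92, 6.62 and 7.04 CPM under water (1.96 ± 0.34, adjusted p = 0.000285). These groups did not overlap. Roisl.0039s0096 was at 1.38, 1.39 and 0.627 CPM against 0.87, 2.23 and 0.823 CPM at 24 h, where the groups overlapped (log2 fold change 0.041 ± 0.45, adjusted p = 0.945). For Roisl.0039s0096, the 48 h values were 0.944, 1.94 and 0.717 CPM in air and 1.68, 1.91 and 1.98 CPM under water, with 1 control above 2 of the submerged libraries (0.35 ± 0.44, adjusted p = 0.491). In air the genes were at similar levels per kb, 0.477 ± 0.14 and 0.426 ± 0.164 CPM per kb at 24 h. The log2 ratio changed by 1.17 ± 0.29, adjusted p = 0.00796 at 24 h and by 1.36 ± 0.29, adjusted p = 0.00276 at 48 h (limma).

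OG0005522 exchanged its genes in *R. islandica* with little change of their sum. Roisl.0030s0124 (rising, 447 bases) was at 4.21, 3.73 and 3.58 CPM in air and 11.6, 14.8 and 15.2 CPM under water at 24 h, and at 3.3, 5.34 and 2.71 CPM in air and 8.103, 11.4 and 9.42 CPM under water at 48 h. Roisl.0001s0063 (falling, 387 bases) was at 10.5, 8.92 and 10.9 CPM in air and 2.42, 1.84 and 2.49 CPM under water at 24 h, and at 10.3, 10.1 and 12.8 CPM in air and 2.83, 2.59 and 3.05 CPM under water at 48 h. The sum was 13.9 ± 1.15 CPM in air and 16.1 ± 1.85 CPM under water at 24 h, and 14.9 ± 1.08 and 12.5 ± 1.53 CPM at 48 h. The share of the rising gene went from 27.6% ± 2.52 to 85.9% ± 3.09 and from 25.4% ± 8.66 to 77.02% ± 3.92. None of the counts of either gene was whole, so these levels rest on how reads were divided among transcripts. Whether the partner or other genes shared those reads was not tested.

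In *R. stylosa* both genes of OG0005522 were higher under water at 24 h, and the sum rose with them, from 8.501 ± 0.491 to 19.6 ± 2.16 CPM. Roisl.0030s0124 was at 4.59, 4.51 and 5.21 CPM in air and 11.6, 13.8 and 12.1 CPM under water at 24 h (log2 fold change 1.16 ± 0.15, adjusted p = 5.02e-05). At 48 h Roisl.0030s0124 was at 4.59, 4.69 and 5.51 CPM in air and 9.42, 11.98 and 11.7 CPM under water (0.88 ± 0.15, adjusted p = 0.000267). All submerged libraries were above the controls. Roisl.0001s0063, the falling gene, was at 3.35, 4.18 and 3.65 CPM in air and 6.05, 8.11 and 7.08 CPM under water at 24 h, the opposite direction to *R. islandica* (log2 fold change 0.72 ± 0.15, adjusted p = 0.00186). It was at 3.85, 3.85 and 4.41 CPM in air and 6.56, 5.34 and 6.49 CPM under water at 48 h, again without overlap, but the test on the TMM scale was not passed (0.31 ± 0.15, adjusted p = 0.0967). The ratio nevertheless rose, by 0.46 ± 0.15, adjusted p = 0.0305 at 24 h and by 0.54 ± 0.15, adjusted p = 0.0126 at 48 h (limma), and the first of these calls was lost without control replicate 2 or any 1 of the submerged libraries of that time (adjusted p from 0.0571 to 0.111).

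Of OG0000386, the falling gene fell in *R. stylosa* too, while the rising gene did not rise. Roisl.0006s0585 (rising, 1665 bases) was at 77.9, 73.2 and 80.97 CPM in air and 159, 150.1 and 159.9 CPM under water in *R. islandica* at 24 h, and at 66.5, 88.3 and 84.5 CPM in air and 185, 179.7 and 175 CPM under water at 48 h. Roisl.0001s0345 (falling, 1683 bases) was at 16.9, 20.5 and 19.3 CPM in air and 2.85, 3.31 and 3.74 CPM under water at 24 h, and at 17.8, 18.8 and 20.5 CPM in air and 3.81, 2.66 and 4.41 CPM under water at 48 h. The libraries of a group were close together in both genes. In *R. stylosa* the rising gene was at 85.03, 77.9 and 99.6 CPM in air and 71.0, 86.03 and 75.3 CPM under water at 24 h, overlapping, and was called as falling (log2 fold change -0.40 ± 0.15, adjusted p = 0.0394). Roisl.0006s0585 at 48 h was at 69.01, 87.7 and 102 CPM in air and 91.8, 93.2 and 103 CPM under water (-0.13 ± 0.15, adjusted p = 0.456), where L by the totals was positive, 0.15. The call at 24 h was lost without 24 h control replicate 3, 24 h submergence replicate 1 or 3, 48 h control replicate 2 or 48 h submergence replicate 3, with adjusted p between 0.05 and 0.177 (edgeR). Roisl.0001s0345 fell clearly, from 25.7, 20.2 and 17.9 to 11.8, 9.18 and 8.38 CPM at 24 h (log2 fold change -1.33 ± 0.16, adjusted p = 3.04e-05). For Roisl.0001s0345, the 48 h values were 22.5, 22.8 and 19.4 CPM in air and 10.4, 9.09 and 7.0 CPM under water (-1.58 ± 0.16, adjusted p = 5.54e-06). All its submerged libraries were below its controls. The log2 ratio changed by 0.91 ± 0.27, adjusted p = 0.022 and by 1.43 ± 0.27, adjusted p = 0.00146 at 24 and 48 h (limma), beside 3.37 and 3.44 in *R. islandica*. The change at 24 h lost its call without control replicate 1 or 2 or submergence replicate 2 or 3, with adjusted p between 0.0631 and 0.0798.

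The genes of OG0004709 had the same calls as those of OG0000386 in *R. stylosa*, at lower levels of the rising gene, but the ratio was not called at 24 h. Roisl.0018s0356 (rising, 2103 bases) was at 2.09, 2.55 and 2.004 CPM in air and 4.08, 4.46 and 3.69 CPM under water in *R. islandica* at 24 h, and at 2.29, 2.63 and 2.54 CPM in air and 6.197, 4.96 and 5.37 CPM under water at 48 h. Roisl.0035s0022 (falling, 2115 bases) was at 34.01, 33.7 and 29.9 CPM in air and 18.1, 11.9 and 10.6 CPM under water at 24 h, and at 34.6, 40.4 and 31.1 CPM in air and 12.9, 12.5 and 13.2 CPM under water at 48 h. Without *R. islandica* 24 h control replicate 1 or 3 or 24 h submergence replicate 2, or with TMM scaling, the pair did not meet the rule. The falling gene stayed the higher one, with 6.07 ± 0.16 against 2.62 ± 0.3 CPM per kb under water at 48 h. In *R. stylosa* the rising gene was at 3.17, 2.17 and 2.05 CPM in air and 2.11, 1.42 and 2.15 CPM under water at 24 h, where 2 submerged libraries lay within the controls, and was called as falling (log2 fold change -0.59 ± 0.23, adjusted p = 0.0425). At 48 h Roisl.0018s0356 was at 2.18, 1.91 and 2.405 CPM in air and 3.46, 2.56 and 2.58 CPM under water, without overlap by the totals but not called (0.11 ± 0.22, adjusted p = 0.693). The call at 24 h was lost without 24 h control replicate 1 (adjusted p = 0.172), submergence replicate 1 (0.0568) or 2 (0.174), without 48 h control replicate 1 or submergence replicate 2 or 3 (0.0509 to 0.0531), without the filter on low counts, and with the 6 libraries of the time alone (edgeR). Roisl.0035s0022 fell from 38.8, 43.8 and 24.9 to 20.7, 14.6 and 20.4 CPM at 24 h (log2 fold change -1.16 ± 0.21, adjusted p = 0.000639). Roisl.0035s0022 at 48 h was at 37.4, 42.4 and 30.2 CPM in air and 12.2, 15.9 and 12.1 CPM under water (-1.73 ± 0.22, adjusted p = 2.28e-05). All submerged libraries of the falling gene were below its controls. The log2 ratio changed by 0.60 ± 0.25, adjusted p = 0.0765 at 24 h, which was not called, and by 1.75 ± 0.25, adjusted p = 0.000223 at 48 h (limma). The share of the rising gene stood at 5.73% ± 1.55 in air and 17.8% ± 4.09 under water at 48 h, against 6.63% ± 0.81 and 29.96% ± 2.21 in *R. islandica*.

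**Figure D4:**
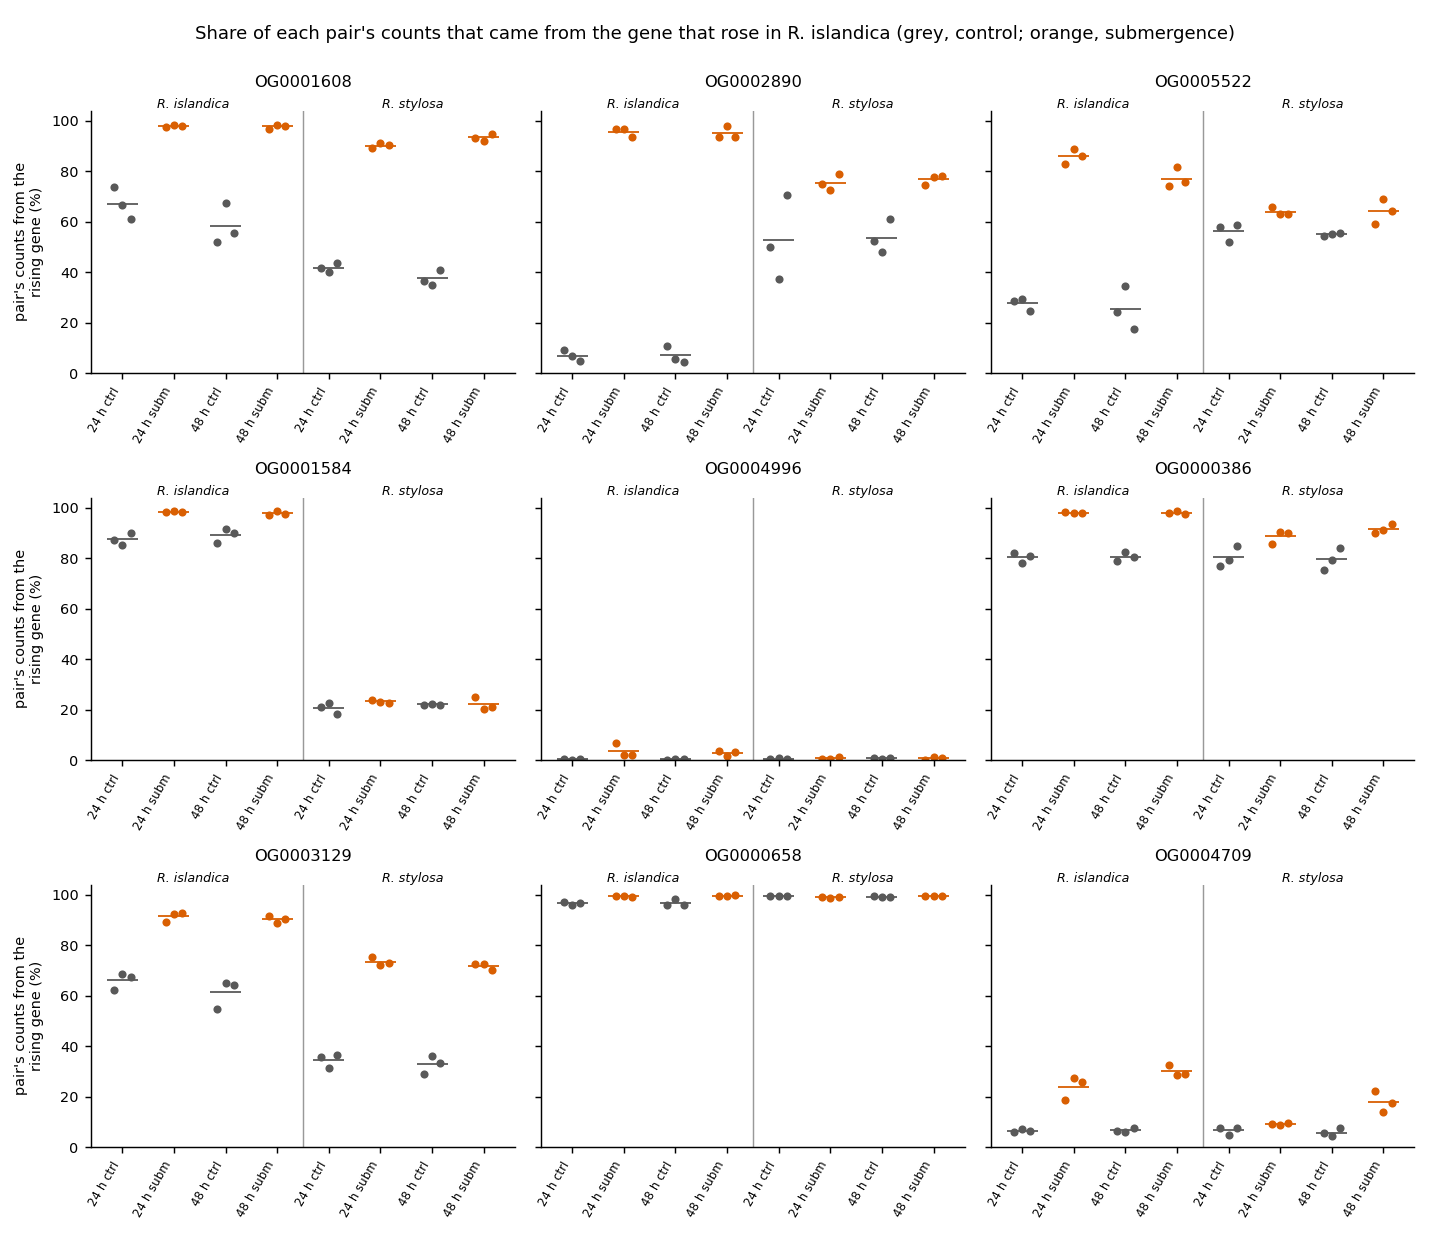
Percent of the counts of a pair that came from its rising gene, in each of the 24 libraries (points; short lines are means of 3), with controls in grey and submergence in orange, *R. islandica* left and *R. stylosa* right of the grey line. In air, *R. islandica* has the higher share of the species in OG0001584, OG0001608 and OG0003129 and the lower one in OG0002890 and OG0005522, and OG0004996 and OG0000658 stay near 0 and 100% on this scale.

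OG0001584 had its genes in the reverse order of abundance in the species. Roisl.0026s0195 (rising) and Roisl.0026s0196 (falling) have consecutive identifiers and the same coding length of 1113 bases. In *R. islandica*, Roisl.0026s0195 was at 68.6, 52.6 and 80.7 CPM in air and 160.2, 157 and 179 CPM under water at 24 h, and at 95.7, 101 and 86.6 CPM in air and 185, 233 and 208 CPM under water at 48 h. Roisl.0026s0196 was at 9.94, 9.13 and 9.04 CPM in air and 3.05, 2.16 and 2.898 CPM under water at 24 h, and at 15.8, 9.55 and 9.62 CPM in air and 5.57, 3.16 and 5.27 CPM under water at 48 h. The rising gene made up 87.5% ± 2.36 of the counts of the pair in *R. islandica* in air at 24 h, but 20.6% ± 2.21 in *R. stylosa*. Both genes fell in *R. stylosa*. Roisl.0026s0195 was at 12.2, 12.6 and 9.202 CPM in air and 7.23, 11.03 and 7.55 CPM under water at 24 h, overlapping in 1 submerged library (log2 fold change -0.60 ± 0.16, adjusted p = 0.00632). For Roisl.0026s0195, the 48 h values were 10.7, 11.1 and 12.4 CPM in air and 8.79, 7.72 and 8.33 CPM under water, without overlap (-0.75 ± 0.16, adjusted p = 0.00107). Roisl.0026s0196 was at 45.3, 43.2 and 41.3 CPM in air and 23.1, 36.7 and 25.7 CPM under water at 24 h (log2 fold change -0.81 ± 0.15, adjusted p = 0.000693). At 48 h Roisl.0026s0196 was at 37.8, 39.1 and 44.2 CPM in air and 26.2, 30.2 and 31.2 CPM under water (-0.75 ± 0.15, adjusted p = 0.000841). No submerged library of Roisl.0026s0196 reached the controls. The log2 ratio did not pass the test, at 0.23 ± 0.11, adjusted p = 0.128 at 24 h and 0.024 ± 0.11, adjusted p = 0.889 at 48 h (limma). None of the counts of this pair was whole in either species. The sum of both genes, which does not depend on the division of reads between them, was 76.7 ± 14.1 CPM in air and 168 ± 12.2 CPM under water for *R. islandica* at 24 h, and 54.6 ± 3.605 and 37.1 ± 9.29 CPM in *R. stylosa*.

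OG0004996 paired the most abundant falling gene with a partner at a low level. Roisl.0018s0495 (falling, 2715 bases) was at 766, 1712 and 1131 CPM in air and 86.4, 271 and 334 CPM under water in *R. islandica* at 24 h, and at 1536, 525 and 859 CPM in air and 279, 490.0 and 354 CPM under water at 48 h. Roisl.0027s0112 (rising, 2373 bases) was at 2.33, 2.53 and 3.57 CPM in air and 6.13, 5.37 and 7.09 CPM under water at 24 h, and at 2.44, 2.495 and 3.54 CPM in air and 10.6, 8.94 and 11.8 CPM under water at 48 h. The controls of the falling gene varied widely at 48 h, and the lowest of them was close to the highest submerged library. Per kb it was at 443 ± 176 CPM in air at 24 h, against 1.18 ± 0.28 for the rising gene. All values of Roisl.0027s0112 in *R. islandica* were not whole, whereas all of Roisl.0018s0495 were whole. In *R. stylosa* both genes fell by more than any other member. Roisl.0018s0495 was at 228, 98.95 and 83.2 CPM in air and 7.42, 23.98 and 6.504 CPM under water at 24 h (log2 fold change -3.62 ± 0.54, adjusted p = 0.000138). Roisl.0018s0495 at 48 h was at 200.2, 201 and 111 CPM in air and 8.46, 7.42 and 3.86 CPM under water (-4.99 ± 0.58, adjusted p = 1.32e-05). Roisl.0027s0112 was at 1.04, 0.713 and 0.382 CPM in air and 0.0415, 0.111 and 0.0784 CPM under water at 24 h (log2 fold change -3.27 ± 0.55, adjusted p = 0.000352), the latter from 1 to 4 counts per library. For Roisl.0027s0112, the 48 h values were 1.24, 0.889 and 0.972 CPM in air and 0, 0.0811 and 0.033 CPM under water, from 0 to 2 counts (-4.96 ± 0.61, adjusted p = 2.10e-05). The groups of both genes lay apart. The 3 submerged libraries at 48 h held 3 counts of Roisl.0027s0112 together and the controls 117, a ratio of 28.4 per library total with a 95% counting interval from 9.46 to 139 (exact binomial, counting error only). The ratio of the genes was called as rising, by 2.45 ± 0.47, adjusted p = 0.00194 at 24 h and 3.10 ± 0.47, adjusted p = 0.00032 at 48 h (limma), but under water the rising gene was below the 0.5 CPM that was added. With 0.02 CPM added, an alternative chosen after seeing the data, the change was 0.68 (adjusted p = 0.479, limma) and 0.26 (adjusted p = 0.801), and the fitted log2 fold changes of the genes differed by 0.35 and 0.028.

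In OG0000658 the rising gene fell in *R. stylosa* at both times. With 0.5 CPM added, the ratio was called against its *R. islandica* direction at 24 h only. Roisl.0046s1508 (rising, 735 bases) was at 81.4, 65.1 and 79.7 CPM in air and 255, 155 and 149 CPM under water in *R. islandica* at 24 h, and at 94.5, 106 and 102 CPM in air and 221, 179.5 and 196 CPM under water at 48 h. Roisl.0046s1507 (falling, 732 bases), the gene with the preceding identifier, was at 2.403, 2.83 and 2.75 CPM in air and 1.53, 0.968 and 1.15 CPM under water at 24 h, and at 4.05, 1.86 and 4.33 CPM in air and 0.971, 0.679 and 0.588 CPM under water at 48 h. Without any 1 of the 3 controls at 24 h, or without control replicate 1 or 3 at 48 h, this pair did not meet the rule. In *R. stylosa* the rising gene was at 286, 341 and 389 CPM in air, above all *R. islandica* libraries, and at 161, 169.6 and 218 CPM under water at 24 h (log2 fold change -1.11 ± 0.27, adjusted p = 0.00431). At 48 h Roisl.0046s1508 was at 296, 309 and 377 CPM in air and 93.6, 197 and 121 CPM under water (-1.52 ± 0.28, adjusted p = 0.00039). All submerged libraries were below the controls. Roisl.0046s1507 was at 2.13, 1.89 and 2.51 CPM in air and 1.41, 2.003 and 1.88 CPM under water at 24 h, overlapping (log2 fold change -0.52 ± 0.33, adjusted p = 0.194). Roisl.0046s1507 at 48 h was at 2.16, 2.397 and 3.43 CPM in air and 0.547, 1.46 and 0.859 CPM under water, without overlap (-1.76 ± 0.34, adjusted p = 0.000647). The log2 ratio fell at 24 h, with a change of -0.64 ± 0.13, adjusted p = 0.00281 (limma), and was not called at 48 h (-0.16 ± 0.13, adjusted p = 0.351). The sign at 48 h depended on the CPM added: the change was -0.64 with 2 CPM, which was called, and 0.23 with 0.02 CPM, which was not. The fitted log2 fold changes of the genes, rising minus falling, differed by 0.24 at 48 h. Under water the level per kb was 187 ± 72.9 CPM for the rising gene and 1.305 ± 0.634 CPM for the falling gene at 48 h.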

How the data were processed

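The deposited tables hold estimated counts, which the authors made with kallisto from paired-end reads checked with FastQC 0.12.0. Transcripts of *R. islandica* served as the reference for both species. The counts were not normalized and stand beside the orthogroup and coding length of each transcript, for 24 libraries. In the column names, 1 and 2 were read as 24 and 48 h and the Roman numeral as the replicate. Transcripts were summed per gene for CPM and the pair rule, and the sums were rounded for the tests. The p-values rest on the spread between libraries of the same group, pooled over all *R. stylosa* groups and moderated across genes or pairs.

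Tests were run in R 4.3.3 on the 12 *R. stylosa* libraries only: edgeR 4.0.16 (filterByExpr, TMM, quasi-likelihood test against no change) for genes, and limma 3.58.1 (moderated test with a trend, on the log2 ratio with a pseudocount of 0.5 CPM) for pairs. p-values were Benjamini-Hochberg adjusted over all 19886 genes or 974 pairs and called under 0.05. In 8 of these pairs both genes held equal values, to within 1e-06 CPM, in every *R. stylosa* library. The scripts were tested on simulated data. Alternatives were DESeq2 1.42.0, its size factors, a log2 threshold of 1, no filter, a replicate block, other library sets, other pseudocounts and limits of the rule, and each library left out. All pairs that met the rule were named, with the nearest ones outside it. The members and lists were chosen with earlier results of these data known.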

Additional observations from a re-analysis of the deposited data

Results flagged for a closer look

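In 3 genes at both times, and in 1 more at 48 h, the groups did not overlap in either species and the submerged *R. stylosa* libraries lay on the opposite side of the controls to those of *R. islandica*. The members were chosen on *R. islandica*, where all of them lay apart, and the difference between the species was not tested. The share of all genes with such a pattern was not computed, so the count is not a result about the members. The falling gene of OG0005522, Roisl.0001s0063, was higher under water in *R. stylosa*, with log2 fold changes of 0.72 at 24 h and 0.31 at 48 h, the latter not past the adjusted p of 0.05 in edgeR. The rising gene of OG0004996, Roisl.0027s0112, was lower under water, by -3.27 and -4.96 on the log2 scale at 24 and 48 h. The rising gene of OG0000658, Roisl.0046s1508, was lower by -1.11 and -1.52. The rising gene of OG0001584, Roisl.0026s0195, was lower at 48 h, by -0.75, while its groups overlapped at 24 h. The log2 ratio of OG0000658 at 24 h, with a change of -0.64, was the only pair ratio among the 9 in which the groups of *R. stylosa* lay apart in the opposite direction to *R. islandica*.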

How the results depend on the processing

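The rule found 9 pairs. It found 5 with a mean of at least 5 CPM, 20 without a minimum level and 24 at an absolute L of at least 0.5, and from 7 to 11 without 1 library. In *R. stylosa*, a threshold of 1 on the log2 scale (glmTreat) left 1 rising gene, 2 falling genes and 0 opposed pairs at 24 h and 1 opposed pair at 48 h. It also left 1 pair in which both genes fell at 24 h and 1 at 48 h, and 1 rising gene that fell at each time. Of all 19886 genes, 1545 rose and 978 fell at 24 h by that threshold, and 2079 rose and 1841 fell at 48 h. limma with the same threshold left 2 ratios at 24 h and 3 at 48 h that moved as in *R. islandica*. It left 0 that moved the opposite way at 24 h. The 3 at 48 h include OG0004996, whose change was 0.26 with 0.02 CPM added in place of 0.5 CPM. Shares over all pairs at these thresholds were not computed. A pseudocount of 2 CPM gave 1 ratio of the opposite direction at 48 h. Opposed pairs ranged from 1 to 2 at both times without 1 library. DESeq2 gave 4 rising genes, 5 falling genes and 1 opposed pair at 24 h, as edgeR did. Changes of sign occurred only in changes that were not called: without 1 library, the log2 fold change of Roisl.0039s0096 at 24 h ran from -0.60 to 0.27, that of Roisl.0006s0585 at 48 h from -0.26 to 0.016, that of Roisl.0018s0356 at 48 h from -0.022 to 0.20, and the ratio change of OG0001584 at 48 h from -0.091 to 0.097. The ratio of OG0000658 at 48 h changed by -0.16 with a pseudocount of 0.5 CPM and by 0.23 with 0.02 CPM, which was chosen after seeing the data. For the changes of sign without 1 library, the cause was not tested.

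The replicate numbers were not treated as pairs in the main fit. The deviations of *R. stylosa* controls and submerged libraries with the same number correlated at -0.00084, -0.17 and 0.13 at 24 h and at 0.14, 0.078 and 0.047 at 48 h. Libraries with different numbers correlated from -0.21 to 0.20 at 24 h and from -0.089 to 0.021 at 48 h. At 48 h these were all below the same-number values, so a small effect shared by a replicate number cannot be set aside there. With the replicate block, Roisl.0039s0096 at 24 h was at -0.051, the ratio of OG0004709 at 24 h was called (0.60, limma adjusted p = 0.0283) and that of OG0005522 at 24 h was not (0.46, adjusted p = 0.0528), and the counts of called genes and pairs stayed within 1.5 times. With 3 libraries per group and levels of 0 to 3 CPM, small changes of Roisl.0027s0112, Roisl.0039s0096 and Roisl.0046s1507 could not be resolved.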
